A study of Rattus norvegicus with 8 samples.

Results

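The genes of the proteasome, the large protease that degrades ubiquitin-tagged proteins, were examined in liver RNA of lean and obese Zucker diabetic fatty rats that received either vehicle or testosterone undecanoate (TU), an ester of testosterone with slow release. A gene was a member if its symbol began Psma, Psmb, Psmc, Psmd, Psme or Psmg, and it was read from its brightest probe. The arrays held 53 probes of 45 such genes, and 44 genes had a probe that the scanner software marked well above background, in Cy3 or Cy5, on 4 or more of the 8 arrays, out of 9979 named genes and 24130 features that passed. Psma8, a testis-type alpha subunit, did not pass, since its probe was well above background on 0 arrays. Psmc3ip and Psme3ip1 passed by name but encode partner proteins that are not proteasome subunits, so 42 genes of the proteasome proper remained. They comprised 7 alpha and 7 constitutive beta subunits of the core particle, 5 immunoproteasome genes, 6 ATPases and 10 other subunits of the regulatory cap, 2 further activators and 5 assembly chaperones. For 8 of the 53 protein-coding genes with such symbols in the RefSeq table used here, Psmd11 and Psmg1 among them, no probe was matched. That table also lists 48 pseudogenes with such symbols, and whether a probe also binds their transcripts could not be read from the files.

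The core particle is a barrel of stacked rings. Alpha subunits form the outer rings and gate the entrance, and beta subunits form the inner rings, where Psmb5, Psmb6 and Psmb7 carry the proteolytic sites. The regulatory cap binds ubiquitin chains, removes them and feeds the unfolded substrate into the barrel with its ring of ATPases. Interferon gamma is known to induce Psmb8, Psmb9 and Psmb10, which replace Psmb5, Psmb6 and Psmb7 in newly made particles, and Psme1 and Psme2, which form an alternative cap; this immunoproteasome shapes peptides for MHC class I. In liver, hepatocytes rely on the constitutive form, while immune cells carry more of the inducible one.

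All rats were male and 12 weeks old. Lean rats were heterozygous for the fa allele of the leptin receptor (fa/+), and obese rats were homozygous (fa/fa), with a defective receptor in every tissue. TU at 20 mg/kg or vehicle was injected under the skin for 4 weeks, every 3 days in the first 2 weeks and weekly in the last 2. There were 4 arrays per genotype, and on each of them vehicle RNA carried the dye Cy3 and TU RNA the dye Cy5. A log2 ratio of TU over vehicle therefore holds any dye bias of its probe. That bias cancels in the difference between genotypes only if it was equal on lean and obese arrays. By the labels the arrays are biological replicates; the number of animals behind each RNA is not stated there, so p-values measure the spread between these samples.

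Lean arrays shared 1 slide and scan, obese arrays another of each, and the slide cannot be told apart from the genotype. The median spot gave 39.5 to 56 units in Cy3, above a local background of 19 to 25, and 56 to 68 units in Cy5, above 41 to 45. Log2 ratios spread most on obese replicate 2, with an SD of 0.46, against 0.11 to 0.25 elsewhere. On obese replicate 1, 303 features lay more than 2 log2 units below the median of the other 7 arrays in both channels, against 3 to 147 features on the others. None of the members' probes was saturated (0 on all arrays). As the tissue label implies, hepatocyte markers gave a high summed log2 intensity, between 19.4 and 20.2 in both channels on all arrays. The number of arrays limits the precision.

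Start regions are shown for Psmb8, Psmb9 and Psme2, the immunoproteasome genes with TU ratios below 0 on every measured array. None of them passed the adjusted threshold for TU, and they were chosen with these values known. Psmb10 was added as the remaining inducible beta subunit and Psmb5 as the constitutive counterpart of Psmb8. The sequences are those of RefSeq on rat GRCr8, read 5′ to 3′ on the gene's strand, from 250 bases before the start to 10 bases from it on. Capitals mark matches, on either strand, to GAAA followed after any 2 bases by GAAA, the core of the interferon-stimulated response element, and to TGACNNNGC, the core of the antioxidant response element. The regions are chr20:4657022-4657281, minus strand, chr20:4668750-4669009, plus strand, chr15:33052742-33053001, minus strand, chr19:50743283-50743542, minus strand and chr15:32047370-32047629, minus strand, in the order printed.
Psmb8: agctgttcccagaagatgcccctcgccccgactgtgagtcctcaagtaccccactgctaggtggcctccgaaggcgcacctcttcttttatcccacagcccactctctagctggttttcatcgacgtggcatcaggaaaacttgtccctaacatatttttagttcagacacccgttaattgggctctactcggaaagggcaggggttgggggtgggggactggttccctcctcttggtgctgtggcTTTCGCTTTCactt
Psmb9: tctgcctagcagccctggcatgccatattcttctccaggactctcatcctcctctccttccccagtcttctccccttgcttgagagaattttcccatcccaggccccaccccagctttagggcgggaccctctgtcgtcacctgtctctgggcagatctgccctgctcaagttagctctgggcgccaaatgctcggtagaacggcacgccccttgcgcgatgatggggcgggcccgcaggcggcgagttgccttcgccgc
Psme2: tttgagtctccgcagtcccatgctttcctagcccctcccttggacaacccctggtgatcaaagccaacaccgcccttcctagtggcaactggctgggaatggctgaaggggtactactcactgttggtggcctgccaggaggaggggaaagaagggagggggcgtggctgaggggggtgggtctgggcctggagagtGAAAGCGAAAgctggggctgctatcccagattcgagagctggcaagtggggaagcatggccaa
Psmb10: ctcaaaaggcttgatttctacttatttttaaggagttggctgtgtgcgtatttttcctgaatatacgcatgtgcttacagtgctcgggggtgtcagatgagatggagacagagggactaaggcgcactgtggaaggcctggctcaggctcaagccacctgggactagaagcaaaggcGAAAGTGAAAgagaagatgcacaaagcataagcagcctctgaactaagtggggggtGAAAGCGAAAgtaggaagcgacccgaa
Psmb5: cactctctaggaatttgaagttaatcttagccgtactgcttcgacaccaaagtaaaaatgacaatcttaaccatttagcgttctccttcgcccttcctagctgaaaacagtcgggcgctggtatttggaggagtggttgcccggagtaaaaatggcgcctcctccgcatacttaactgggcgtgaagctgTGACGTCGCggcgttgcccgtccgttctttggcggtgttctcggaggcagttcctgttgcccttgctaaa

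A start region was matched for 38 of the 42 genes, not for Psma7, Psmd6, Psmd12 and Psmd14. Over the full 300 bases of the table, which run to 50 bases past the start, the interferon element core was found in 3 of 5 immunoproteasome genes and 4 of 33 others, and in 3.92% of all 33469 start regions. In Psmb8 its match began 4 bases before the start, in Psme2 53 bases before, and in Psmb10 there were matches 73 and 17 bases before. In Psmb9 and Psme1 these letters were not found in this window. The antioxidant element core was in 0 of 5 immunoproteasome genes and 8 of 33 others, against 12.1% of all start regions; Psmb5 held it 60 bases before the start. The core of the gamma-activated site, TTCNNNGAA, was found in 1 of 5 and 3 of 33 (8.87% of all), and CCAAT in 2 of 5 and 17 of 33 (37.5% of all). The letters of these motifs do not overlap in the matches marked. They describe the windows and show no binding.

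The first question was which proteasome genes differed between TU and vehicle within each genotype. No member passed the adjusted threshold of limma (Benjamini-Hochberg 0.05 over all features) in lean rats (0 of 44, where 0.195% of all features were called, 0.125% higher and 0.0706% lower) or in obese rats (0 of 44, against 0.0124%). At an unadjusted p under 0.05, 2 members lay higher and 9 lower in lean rats, where 15.2% of features passed, 6.52% higher and 8.73% lower. One of the higher was Psmc3ip, not a subunit, so over the 42 genes of the proteasome proper 1 lay higher and 9 lower. In obese rats 5 lay higher and 14 lower, where 12.6% of features passed, 6.52% higher and 6.13% lower. In lean rats 4 members were above 0 on all measured arrays and 11 below, beside 12.1% and 18.4% of features, and in obese rats 5 and 12, beside 13% and 10.3%. Psmb6 (above) and Psmb9, Psme2 and Psmc4 (below) were counted on 3 obese arrays each, while a feature needed all 4. The obese counts are thus not on the same rule as their shares. Over the 42 genes of the proteasome proper, the lean counts were 3 and 11. The median log2 ratio of the 44 members was -0.03 in lean and -0.09 in obese rats, beside -0.018 and -0.006 over all features. The 42 proteasome genes were brighter than most features, with a median log2 intensity of 11.6 to 12.2 per array in Cy3, beside 7.45 to 7.47. The shares and medians over all features given here were not matched for intensity. The lowest values belonged to Psmb8 and Psmb9 in both genotypes, and the highest to Psmg4. With median centring in place of loess, which moved the median of all features to -0.21 in lean rats, 18 members were called lower there, 0 higher and 23.8% of all features, and 0 members in obese rats.

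**Figure D1:**
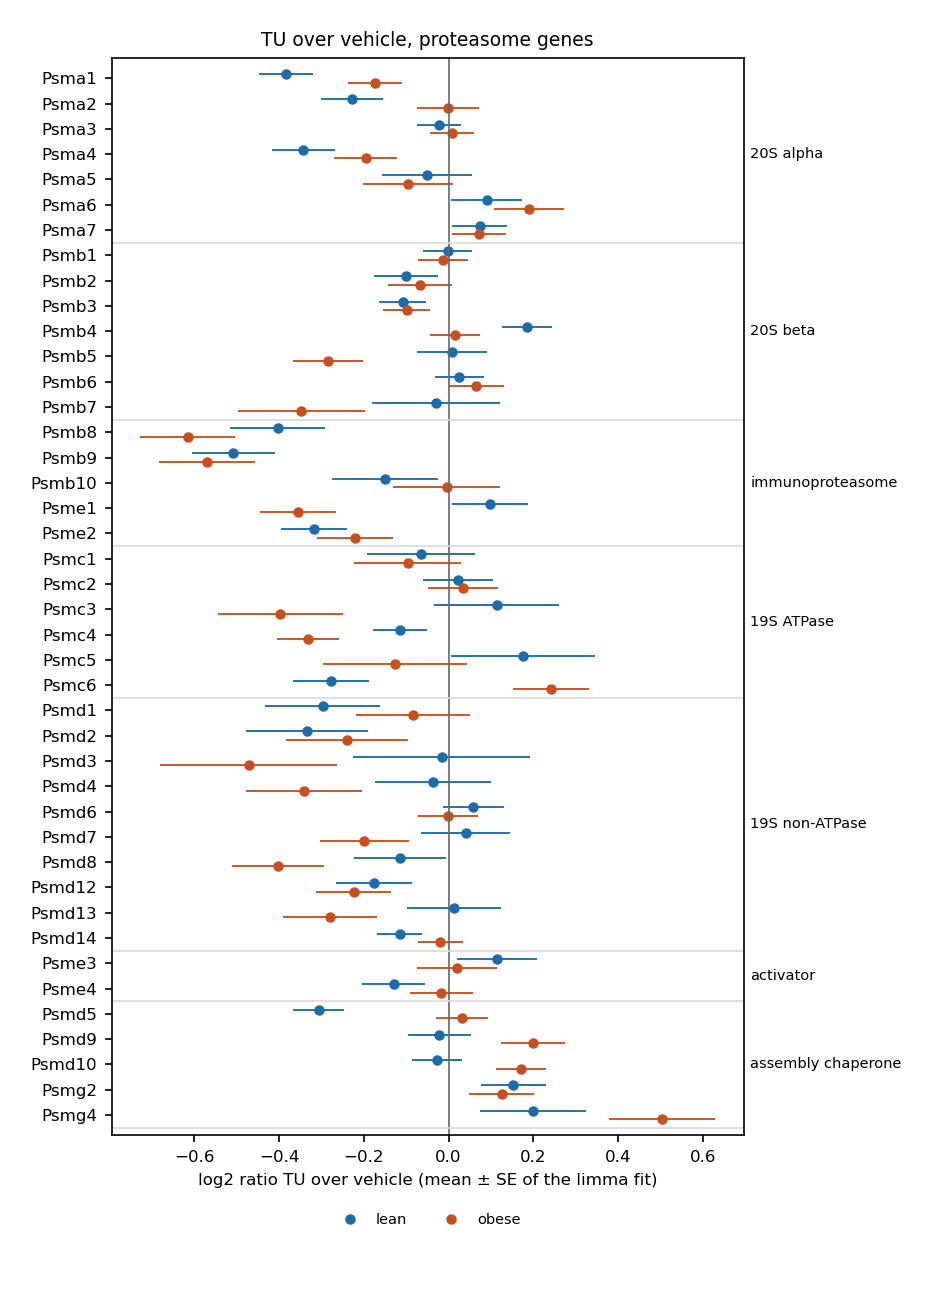
Log2 ratio of TU over vehicle for the 42 proteasome genes, grouped by role; points are the means of 4 arrays (3 where a spot was left out) and bars the SE of the limma fit, blue for lean and orange for obese rats. Psmb8 and Psmb9 lie furthest below 0 in both genotypes, and no gene passed the adjusted threshold of limma. The means of all 10 cap subunits other than ATPases lie below 0 in obese rats, but only 3 of the 10 were below 0 on every obese array.

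Among the immunoproteasome genes, Psmb8, Psmb9 and Psme2 had log2 ratios below 0 on every measured array of both genotypes. The median log2 ratio of the 5 genes was -0.32 in lean rats, with 4 of 5 below 0, and -0.35 in obese rats, with 5 of 5 below 0, of which Psmb10 and Psme2 turned above 0 with median centring in place of loess and Psmb10 with the processed signals. The 37 other genes had medians of -0.03 and -0.07, with 23 and 24 of 37 below 0. At an unadjusted p under 0.05, 3 of the 5 lay lower in lean and 4 of the 5 in obese rats.

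Psmb8, the inducible subunit with chymotrypsin-like activity, had log2 ratios of -0.46, -0.55, -0.20 and -0.41 on the lean arrays and -0.71, -1.005, -0.52 and -0.22 on the obese arrays. All 8 arrays lay below 0. Every SE given here is that of the limma fit, which pools the spread of both genotypes and moderates it over all features. The n is the number of arrays in the mean. The mean of Psmb8 was -0.40 ± 0.11 (SE, n = 4) in lean rats, 1.32-fold lower with TU, with an adjusted p of 0.156 in limma. In obese rats it was -0.62 ± 0.11 (SE, n = 4), or 1.53-fold lower (adjusted p = 0.208, limma). Psmb9, the inducible replacement of the caspase-like subunit, gave -0.19, -0.65, -0.51 and -0.68 in lean rats and -0.81, -0.51 and -0.39 in obese rats, where the spot of replicate 4 was left out as non-uniform. Every measured array was below 0 for Psmb9 as well. Its means were -0.51 ± 0.10 in lean (SE, n = 4; adjusted p = 0.0928, limma) and -0.57 ± 0.11 in obese rats (SE, n = 3; adjusted p = 0.218, limma). Without obese replicate 2, the array with the widest log ratios, the limma fit gave adjusted p-values of 0.0365 for Psmb8 and 0.0359 for Psmb9 in lean rats, with the same lean means, and called 5 members lower there (4.56% of all features were then called).

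Psme2, a subunit of the interferon-inducible cap, had log2 ratios of -0.43, -0.51, -0.11 and -0.23 in lean and -0.09, -0.37 and -0.20 on the 3 obese arrays with a value; replicate 1 was left out as non-uniform. All measured arrays lay below 0, with means of -0.32 ± 0.08 (SE, n = 4) and -0.22 ± 0.09 (SE, n = 3). Psme1, its partner in the same ring, ran differently: 0.18, -0.0022, 0.05 and 0.16 on the lean arrays and -0.56, -0.60, -0.14 and -0.12 on the obese arrays. The lean and obese values of Psme1 did not overlap. The response of Psme1 was -0.45 ± 0.13 (SE) in obese minus lean rats, with an adjusted p of 0.618 in limma, so the difference did not pass. Psmb10, the inducible replacement of the trypsin-like subunit, gave 0.06, -0.48, 0.09 and -0.27 in lean and -0.15, 0.44, -0.24 and -0.08 in obese rats. Its values lay on both sides of 0 in each genotype, with means of -0.15 ± 0.13 and -0.0042 ± 0.13 (SE, n = 4 each).

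**Figure D2:**
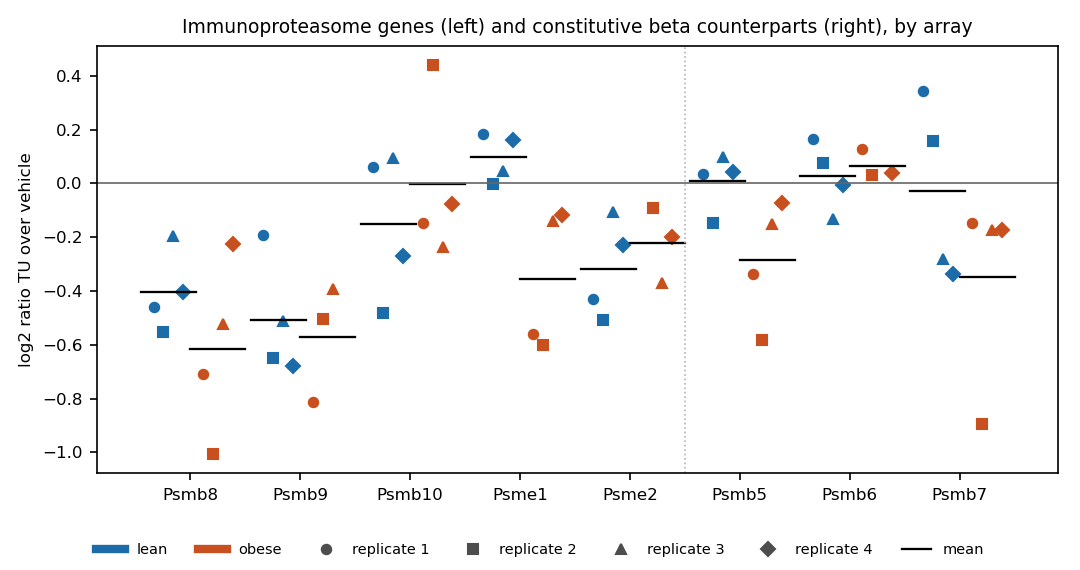
Log2 ratio of TU over vehicle on every array for the 5 immunoproteasome genes and, right of the dotted line, the constitutive beta subunits Psmb5, Psmb6 and Psmb7; blue is lean, orange obese, the marker shape gives the replicate and the black bar the mean. Every point of Psmb8, Psmb9 and Psme2 lies below 0, Psme1 separates the genotypes, and the constitutive subunits scatter around 0 in lean rats.

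The constitutive counterparts did not show the low values of Psmb8 and Psmb9 in lean rats. Psmb5, with the chymotrypsin-like site, had a mean log2 ratio of 0.01 ± 0.08 in lean and -0.29 ± 0.08 in obese rats (SE, n = 4 each). All 4 obese arrays were below 0 for Psmb5, at -0.34, -0.58, -0.15 and -0.07, and the adjusted p was 0.341 in limma. Psmb6 gave 0.03 ± 0.06 in lean and 0.07 ± 0.07 in obese rats (SE, n = 4 and 3). Psmb7 gave -0.03 ± 0.15 in lean and -0.35 ± 0.15 in obese rats (SE, n = 4 each), where obese replicate 2 stood at -0.90 and the other obese arrays between -0.17 and -0.15. Psmb8 and Psmb5 were not tested against each other, since dye bias differs between probes.

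For MHC class I peptide loading and interferon signalling, 10 of 14 listed genes were measured; 0 passed the adjusted threshold of limma in either genotype, and at an unadjusted p under 0.05, 3 lay lower in lean and 5 in obese rats, with 0 higher. The median log2 ratio of the 10 was -0.13 in lean and -0.39 in obese rats. Tapbp, which tethers class I molecules to the peptide transporter, stood at -0.30 and -0.49 (lean and obese), Pdia3, a disulfide isomerase of the loading complex, at -0.57 and -0.66, and Tap1, a subunit of that transporter, at -0.10 and -0.28. B2m, the light chain of class I molecules, gave 0.07 and 0.14.

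Markers of resident macrophages were read beside these genes. All 11 listed Kupffer cell and macrophage markers were measured, their log2 ratios ran from -0.42 to 0.11 in lean and from -0.45 to -0.02 in obese rats, and 0 passed the adjusted threshold of limma in either (2 and 4 at an unadjusted p under 0.05, all lower). Their summed log2 intensity was 15.6 to 16.0 under vehicle and 15.6 to 15.7 under TU on lean arrays, and 15.4 to 15.9 and 15.4 to 15.5 on obese arrays. Of 13 lymphocyte markers 8 were measured, with ratios from -0.16 to 0.16 in lean and from -0.08 to 0.07 in obese rats; Cd3e, Cd2, Cd79a and Ms4a1 were among those not measured above the filter. Of 8 hepatocyte markers 1 was called higher in lean rats and 4 lay higher and 1 lower at an unadjusted p under 0.05, with medians of 0.30 in lean and 0.04 in obese rats. Of 6 measured stellate cell markers 2 lay lower at that p in lean rats and 0 in obese rats, with medians of -0.28 and 0.04, and 3 measured erythroid markers had medians of 0.79 and -0.29. The part of these cell types in the immunoproteasome values was not tested. In whole liver, fewer cells of a type and less RNA per cell cannot be told apart.

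Among the alpha subunits, 3 of 7 lay lower at an unadjusted p under 0.05 in lean rats and 2 of 7 in obese rats, with 1 higher in obese rats. Psma1, an alpha ring subunit, gave -0.42, -0.62, -0.27 and -0.23 in lean and -0.17, -0.13, -0.21 and -0.18 in obese rats. All 8 arrays were below 0. The mean of Psma1 was -0.38 ± 0.06 in lean rats (SE, n = 4; adjusted p = 0.0682, limma) and -0.17 ± 0.06 in obese rats (SE, n = 4; adjusted p = 0.376, limma). Without obese replicate 2 the lean value of Psma1 passed, at an adjusted p of 0.0225 in limma. The spot of Psma1 on obese replicate 1 was close to background, as given with the levels. The 7 constitutive beta subunits spanned -0.11 to 0.18 in lean and -0.35 to 0.07 in obese rats. Psmb4, a structural beta subunit, marked the upper end in lean rats, at 0.18 ± 0.06 (SE, n = 4).

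In obese rats the cap subunits other than ATPases had mean log2 ratios below 0 in 10 of 10, where 12644 of 24128 features did. The count was 5 of 10 with median centring in place of loess and 5 of 10 with log ratios scaled between arrays. Only 3 of 10 were below 0 on every obese array, beside 10.3% of features. The 10 means ran from -0.47 to -0.00088, with a median of -0.23, and 4 of 10 passed an unadjusted p under 0.05. In lean rats 7 of 10 were below 0, with a median of -0.08 and 1 of 10 past that p. Psmd3, a subunit of the lid, held the lowest obese mean, -0.47 ± 0.21 (SE of the limma fit, n = 4). Its obese arrays read -0.07, -1.48, -0.10 and -0.24, with an SD of 0.68. That mean rested on replicate 2, which stood more than 1 log2 unit below the other obese arrays of Psmd3. The 6 ATPases scattered around 0 in both genotypes. Psmc6 gave -0.24, -0.35, -0.38 and -0.15 in lean and 0.06, 0.52, 0.40 and -0.01 in obese rats, groups that did not overlap. Psmc4 had a mean of -0.33 ± 0.07 in obese rats (SE, n = 3, replicate 3 left out as non-uniform; adjusted p = 0.264, limma). Psmc5 held the highest lean value among ATPases, 0.18 ± 0.17 (SE, n = 4), with its arrays on both sides of 0.

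The assembly chaperones had mean log2 ratios above 0 in 5 of 5 in obese rats, where 11484 of 24128 features did. The count was also 5 of 5 with median centring and with scaled log ratios. The obese means ran from 0.03 to 0.50, and 3 of 5 passed an unadjusted p under 0.05. In lean rats 2 of 5 were above 0, with a median of -0.02, and 0 of 5 with median centring. Psmg4, which helps to build the alpha ring, gave 0.49, 0.33, -0.16 and 0.14 in lean and 0.42, 0.94, 0.28 and 0.39 in obese rats. All 4 obese arrays were above 0, and the mean was 0.50 ± 0.13 (SE, n = 4; adjusted p = 0.296, limma), or 1.42-fold higher with TU. Psmd9, a chaperone of the cap base, had a mean of 0.20 ± 0.07 in obese rats (SE, n = 4). Psmd5, another chaperone of the cap base, gave -0.23, -0.34, -0.35 and -0.30 in lean and 0.20, -0.12, 0.13 and -0.08 in obese rats. The lean arrays of Psmd5 were all below every obese array, with a lean mean of -0.31 ± 0.06 (SE, n = 4; adjusted p = 0.0888, limma). The activators Psme3, of the nucleus, and Psme4, which caps particles without ubiquitin, had means between -0.13 and 0.11 in both genotypes.

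The second question was whether the TU response differed between obese and lean rats. No member passed the adjusted threshold of limma (0 of 44, where 0.00415% of features were called), and 4 lay higher and 3 lower at an unadjusted p under 0.05 (7.91% of features, 5.3% higher and 2.61% lower). The largest differences in obese minus lean rats were 0.52 ± 0.13 for Psmc6, 0.34 ± 0.09 for Psmd5 and 0.30 ± 0.18 for Psmg4 on the upper side. On the lower side were -0.51 ± 0.21 for Psmc3, -0.46 ± 0.30 for Psmd3 and -0.45 ± 0.13 for Psme1 (all SE). The adjusted p of Psmc6, Psmd5 and Psme1 was 0.618 each. Psmc3, an ATPase, gave -0.02, 0.13, 0.11 and 0.23 in lean and -0.43, -1.03, 0.09 and -0.22 in obese rats, with replicate 2 lowest. For Psmb8 and Psmb9 the differences were -0.21 ± 0.16 and -0.06 ± 0.15 (SE; adjusted p = 0.727 and 0.9, limma), and with median centring they were 0.59 and 0.79, the opposite sign. That setting also moved the median difference of all features to 0.22.

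The third question was how obese rats compared with lean rats within each treatment. Values are log2 intensities after normalization, compared within 1 dye, and the Cy3 and Cy5 comparisons share spots, arrays and slides. Under vehicle (Cy3), 9 of 44 members were higher in obese rats and 0 lower at an adjusted p under 0.05 in limma (20.5% of members), where 14.8% of all features were called, 7.45% higher and 7.38% lower. Under TU (Cy5), 6 were higher and 3 lower (20.5% of members), where 20.5% of all features were called, 11.6% higher and 8.92% lower. At an unadjusted p under 0.05, 14 members lay higher and 1 lower in Cy3 (31.2% of features, 16.1% higher and 15.1% lower) and 11 higher and 4 lower in Cy5 (34.4%, 19% higher and 15.3% lower). Without Psme3ip1, not a subunit, 13 of the 42 proteasome genes lay higher in Cy3. All measured obese arrays were above all lean arrays for 8 members and below for 2 in Cy3 (13.1% and 12.5% of features), and for 6 and 5 in Cy5 (15.2% and 11.6%). Psme2, among those below in both channels, was counted on 3 obese arrays, while a feature needed a value on all 8 arrays. The share of members called was thus close to that of all features under TU. The median difference of the 44 members was -0.07 in Cy3 and -0.03 in Cy5, beside 0.0065 and 0.015 over all features. Leaving out lean replicate 1 lowered the count in Cy3 to 5, with 6.41% of features called, and leaving out obese replicate 1 raised that in Cy5 to 14 (11 higher and 3 lower, with 31.5% of features called). With the replicate number as a block, 11 members were called in Cy5 (8 higher and 3 lower, with 19.4% of features called). The Cy5 deviations set the numbered pair well apart from other pairs for replicate 1 only.

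**Figure D3:**
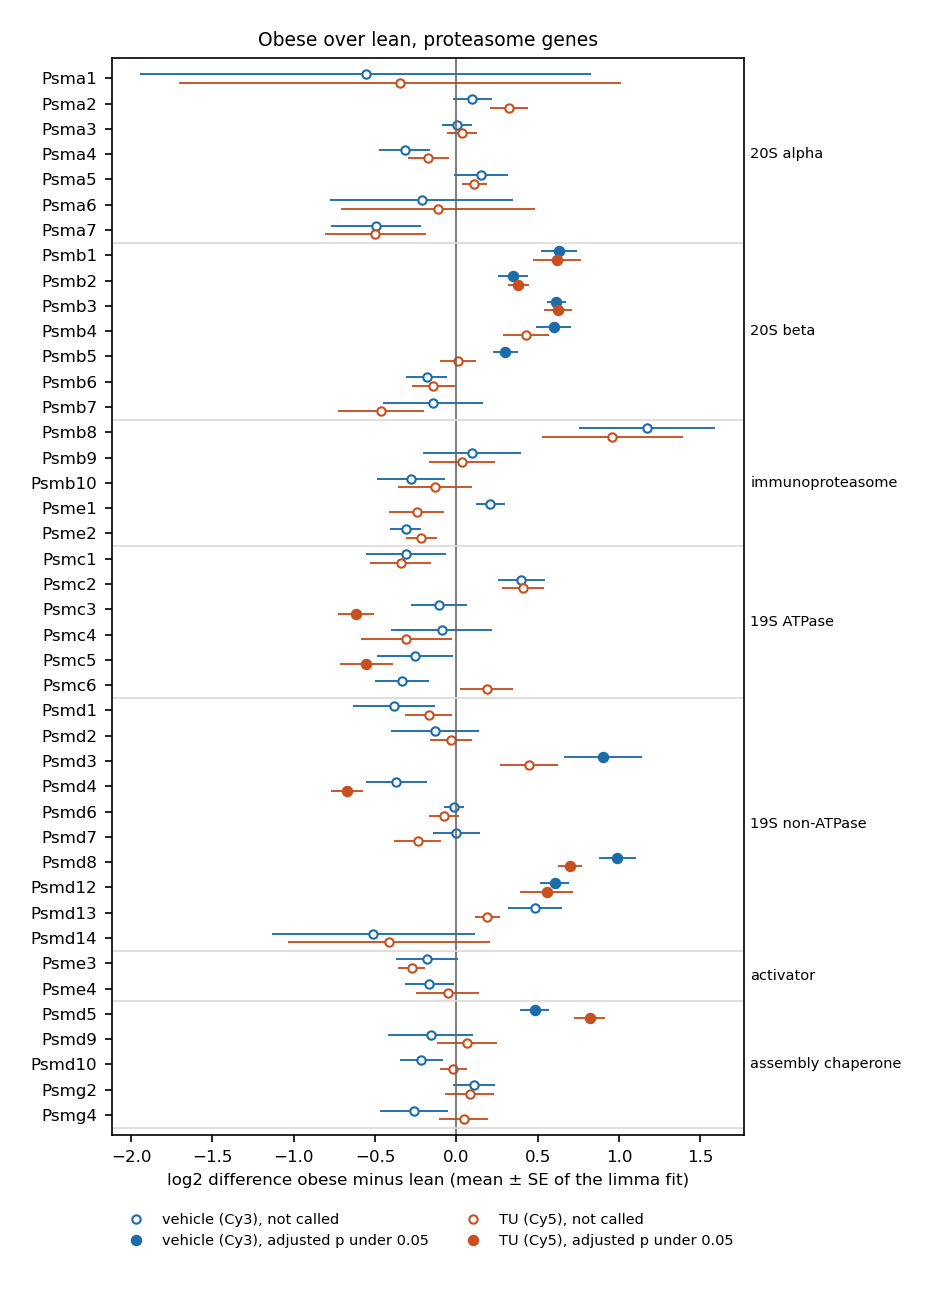
Log2 difference of obese minus lean rats for the 42 proteasome genes under vehicle (Cy3, blue) and TU (Cy5, orange), with the SE of the limma fit; filled points passed an adjusted p of 0.05. The filled points of the constitutive beta subunits Psmb1, Psmb2 and Psmb3 lie on the right in both channels, and the wide bars of Psma1, Psma6 and Psmd14 come with 1 array far from the others.

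Of the 7 constitutive beta genes, 5 were called higher in obese rats under vehicle (Psmb1 to Psmb5) and 3 under TU (Psmb1, Psmb2 and Psmb3), and 0 lower in either. Without loess these counts were 0 under vehicle and 4 under TU, and with the processed signals of the scanner software 2 and 2. With those signals the Cy3 calls of Psmb2, Psmb3, Psmb4 and Psmb5 were lost (adjusted p = 0.455, 0.076, 0.105 and 0.867, limma), as was the Cy5 call of Psmb2 (0.17), and 1 of the 2 Cy3 calls was Psmb7. Psmb3 read 13.20, 13.17, 13.27 and 13.12 on lean and 13.77, 13.71, 13.85 and 13.88 on obese arrays in Cy3. Every obese array was above every lean array of Psmb3. The difference was 0.61 ± 0.06 in Cy3 (SE, n = 4 each; 1.53-fold, adjusted p = 0.00114, limma) and 0.62 ± 0.09 in Cy5 (adjusted p = 0.00266, limma), where the arrays read 13.02, 12.91, 13.25 and 13.14 and 13.74, 13.59, 13.69 and 13.79. Psmb1 read 11.23, 11.14, 11.44 and 11.33 on lean and 11.88, 11.91, 11.70 and 12.17 on obese arrays in Cy3, again without overlap. Its difference was 0.63 ± 0.11 in Cy3 (adjusted p = 0.011, limma) and 0.62 ± 0.15 in Cy5 (adjusted p = 0.0234, limma); without lean replicate 1 or 2 the Cy5 call of Psmb1 was lost (adjusted p = 0.0643 and 0.0664).

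Psmb4 was 1.51-fold higher in obese rats under vehicle (0.60 ± 0.11, adjusted p = 0.0131, limma), and gave 0.43 ± 0.14 under TU (adjusted p = 0.0651). Psmb2 was higher by 0.35 in Cy3 and 0.38 in Cy5 on the log2 scale (adjusted p = 0.0442 and 0.00535, limma). The Cy3 call of Psmb2 was lost on leaving out any array except obese replicate 2, and without loess its Cy3 difference was -0.019. Psmb5, a proteolytic subunit, was higher in Cy3 by 0.30 ± 0.08 (adjusted p = 0.0399, limma), against 0.01 ± 0.11 in Cy5. That Cy3 call of Psmb5 was lost on leaving out any array except obese replicate 3, and without loess its difference was -0.066. The other proteolytic subunits gave -0.18 ± 0.13 (Psmb6) and -0.15 ± 0.31 (Psmb7) in Cy3 and -0.14 ± 0.13 and -0.46 ± 0.26 in Cy5, none of which passed. With the processed signals of the scanner software, Psmb7 stood at 0.76 in Cy3 with an adjusted p of 0.0145 in limma, opposite in sign to the value here.

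Cap subunits other than ATPases held 3 of 10 higher in Cy3, and 2 higher and 1 lower in Cy5. Psmd8, a subunit of the lid, showed the largest called difference, with 11.30, 11.49, 11.46 and 11.52 on lean and 12.38, 12.77, 12.30 and 12.28 on obese arrays in Cy3. In Cy5 Psmd8 read 11.37, 11.31, 11.35 and 11.28 on lean and 12.19, 11.89, 11.95 and 12.09 on obese arrays. The groups were apart in both channels, by 0.99 ± 0.12 in Cy3 (1.99-fold, adjusted p = 0.00243, limma) and 0.70 ± 0.07 in Cy5 (1.62-fold, adjusted p = 0.00101, limma). Psmd12, also of the lid, was higher by 0.60 ± 0.09 in Cy3 (adjusted p = 0.00652, limma) and by 0.56 ± 0.16 in Cy5 (adjusted p = 0.0462, limma), and the Cy5 call of Psmd12 was lost on leaving out any array except obese replicate 1. Psmd3 was 1.87-fold higher in Cy3 (0.90 ± 0.24, adjusted p = 0.0444, limma), with 9.33, 9.25, 9.24 and 9.37 on lean and 10.30, 10.86, 9.58 and 10.06 on obese arrays. The lean arrays of Psmd3 were close together and the obese arrays spread over more than 1 log2 unit, and the call was lost on leaving out any array except obese replicates 2 and 3 (adjusted p up to 0.115). In Cy5 the difference of Psmd3 was 0.45 ± 0.18 (adjusted p = 0.123).

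With the main processing, members called lower in obese rats were found only under TU, 3 of 44 where 8.92% of all features were called lower. Without loess, Psma7 was called lower under vehicle (8.27% of all features were then called) and 0 members under TU. Leaving out obese replicate 1 or 3 also gave 1 member lower under vehicle (20.6% and 15.6% of all features called). Psmd4, a ubiquitin receptor of the cap, read 11.75, 11.42, 11.70 and 11.74 on lean and 11.11, 10.80, 10.98 and 11.03 on obese arrays in Cy5. Every obese array was below every lean array, and the difference was -0.67 ± 0.10 (1.59-fold lower, adjusted p = 0.00363, limma). The ATPases Psmc3 and Psmc5 were lower by similar steps, with -0.62 ± 0.11 (adjusted p = 0.00793, limma) and -0.55 ± 0.16 (adjusted p = 0.047, limma). For Psmc5 the call was lost on leaving out any array except obese replicate 4. Under vehicle the same genes gave -0.37 ± 0.19 (Psmd4), -0.11 ± 0.17 (Psmc3) and -0.25 ± 0.23 (Psmc5), none of which passed. Their TU responses did not differ between genotypes past the threshold either. The differences in obese minus lean rats were -0.30, -0.51 and -0.30 in that order (adjusted p = 0.705, 0.626 and 0.737, limma). Without loess, none of Psmd4, Psmc3 and Psmc5 passed in Cy5 (adjusted p = 0.211, 0.40 and 0.692, limma).

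Of the assembly chaperones, 1 of 5 was called in each channel. Psmd5 read 9.62, 9.65, 9.83 and 9.49 on lean and 10.09, 10.30, 10.10 and 10.02 on obese arrays in Cy3, and 9.39, 9.30, 9.48 and 9.19 and 10.29, 10.18, 10.23 and 9.94 in Cy5. No lean array reached an obese one in either channel. The difference was 0.48 ± 0.09 in Cy3 (1.4-fold, adjusted p = 0.0142, limma) and 0.82 ± 0.09 in Cy5 (1.76-fold, adjusted p = 0.0014, limma); without lean replicate 1 the Cy3 call of Psmd5 was lost (adjusted p = 0.0513). Altogether 6 members were called in both channels, Psmb1, Psmb2, Psmb3, Psmd5, Psmd8 and Psmd12, and all of them were higher in obese rats. The channels share spots, arrays and slides, so a call in both is not independent evidence. The share of all features called in both channels was not counted. Without loess, of the 9 members called in Cy3 only Psmd8 kept its call, and Psmb1, Psmb3, Psmb4, Psmd12 and Psmd5 stood at 0.30, 0.24, 0.22, 0.27 and 0.21 with adjusted p-values of 0.573 to 0.773 (limma).

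**Figure D4:**
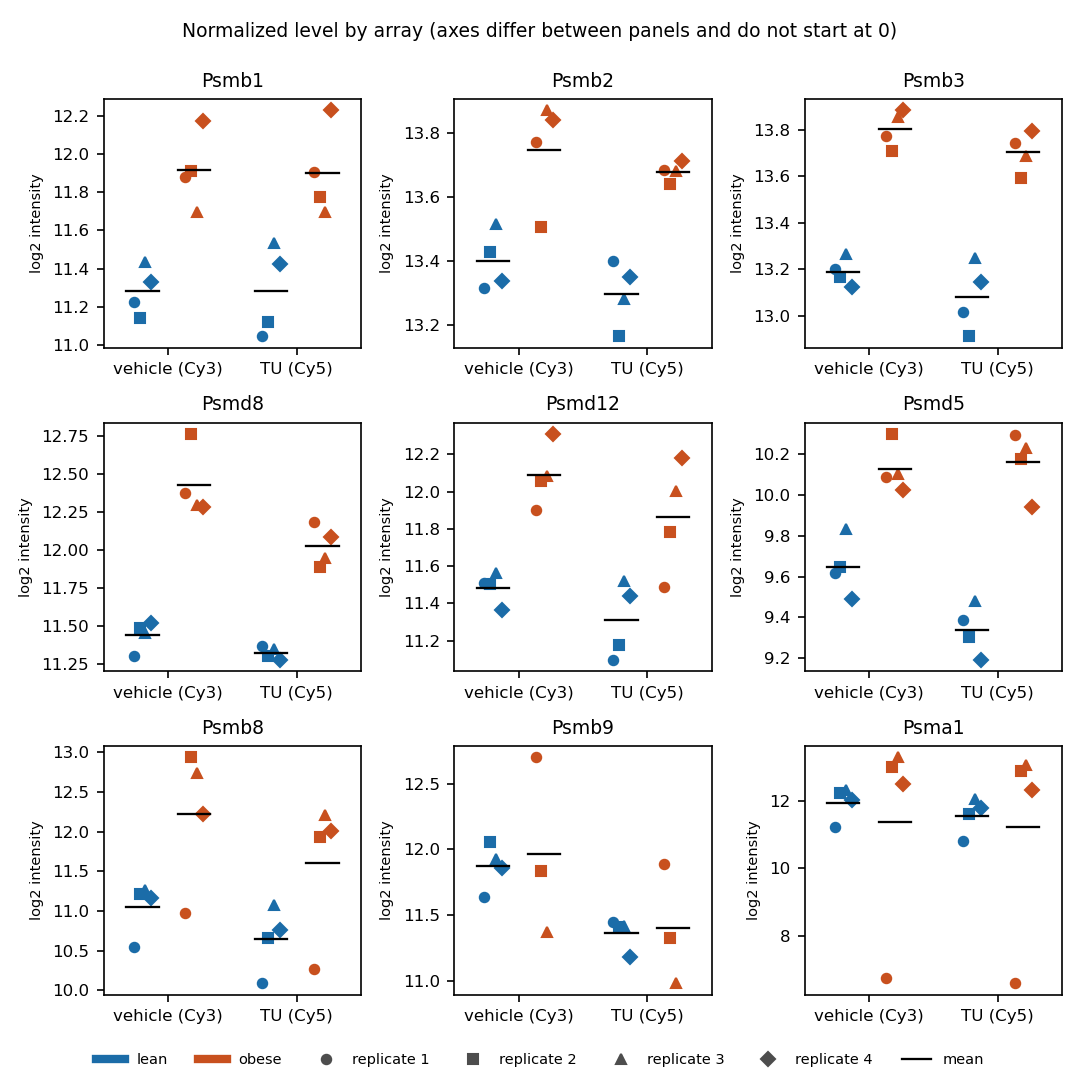
Normalized log2 intensity on every array under vehicle (Cy3) and TU (Cy5) for the 6 genes called in both channels and for Psmb8, Psmb9 and Psma1; blue is lean, orange obese, the marker shape gives the replicate and the black bar the mean. Each panel has its own axis, which does not start at 0. Lean and obese points do not overlap for Psmb1, Psmb3, Psmd8 and Psmd5, overlap slightly for Psmb2 in Cy3 and Psmd12 in Cy5, and obese replicate 1 stands far below the other obese arrays for Psmb8 and Psma1.

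None of the 5 immunoproteasome genes passed the adjusted threshold of limma between obese and lean rats (0 of 5 in each channel; at an unadjusted p under 0.05, 2 lay higher and 1 lower in Cy3 and 0 in Cy5). Psmb8 read 10.54, 11.21, 11.27 and 11.17 on lean and 10.97, 12.93, 12.74 and 12.23 on obese arrays in Cy3. In Cy5 it read 10.09, 10.66, 11.07 and 10.76 and 10.26, 11.93, 12.21 and 12.00. Obese replicate 1 lay among the lean arrays in both channels, and the other obese arrays lay above all lean arrays. The difference was 1.17 ± 0.42 in Cy3 (SE, n = 4 each, 2.25-fold; adjusted p = 0.103, limma) and 0.96 ± 0.43 in Cy5 (adjusted p = 0.159, limma). Without obese replicate 1 it was 1.59 in Cy3 (adjusted p = 0.00635, limma) and 1.40 in Cy5 (adjusted p = 0.0032, limma), and with the replicate block the Cy5 value passed (adjusted p = 0.0329). Psmb8 also passed in both channels with the processed signals of the scanner software, at 1.099 in Cy3 and 0.88 in Cy5 (adjusted p = 0.0158 and 0.039, limma), and without loess, at 0.84 and 1.29 (adjusted p = 0.0469 and 0.0264, limma). On leaving out any other array Psmb8 passed in neither channel, with adjusted p-values up to 0.233 in Cy3 and 0.329 in Cy5 (limma). Under the other alternative settings, and with the block in Cy3, it did not pass.

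Psmb9 read 11.64, 12.06, 11.93 and 11.86 on lean and 12.70, 11.83 and 11.37 on the 3 obese arrays with a value in Cy3, so the groups overlapped. Its difference was 0.10 ± 0.30 in Cy3 and 0.03 ± 0.20 in Cy5 (SE, n = 4 and 3), and without obese replicate 1, the highest of them, the Cy3 value was -0.27. Psmb10 gave -0.28 ± 0.21 and -0.13 ± 0.23. Psme1 gave 0.21 ± 0.09 in Cy3 and -0.24 ± 0.17 in Cy5, and its Cy3 value passed without obese replicate 1 (0.28, adjusted p = 0.0373, limma). Psme2 gave -0.31 ± 0.10 in Cy3 (adjusted p = 0.0773, limma) and -0.22 ± 0.09 in Cy5, and its Cy3 value passed without obese replicate 3 (-0.42, adjusted p = 0.0273, limma). The 5 genes thus held values on both sides of 0 in each channel. Beside them, of 8 measured lymphocyte markers 3 were lower in obese rats in each channel by limma, Cd3d, Cd3g and Gzmb, and their list's summed log2 intensity was 10.49 to 10.63 on lean and 10.03 to 10.33 on obese arrays in Cy3. Of 11 macrophage markers 1 was lower in Cy3 and 2 in Cy5, C1qa in both. Of 6 measured stellate cell markers 2 were higher and 1 lower in Cy3 and 3 higher and 1 lower in Cy5, of 3 endothelial markers 0 and 2 were lower, and of 3 dendritic cell markers 0 and 1 were higher. Of 8 hepatocyte markers 2 were higher in Cy3, and 1 higher and 1 lower in Cy5, and of 3 erythroid markers 1 was higher in Cy3 and 0 in Cy5, with medians of 0.91 and -0.29. The part of these cells in the result was not tested.

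Single spots set some of the alpha and cap values. On obese replicate 1 Psma1 had a raw Cy3 signal of 36 over a background of 18, against 2208 to 9974.5 on the other arrays, and its normalized log2 intensity was 6.76, against 11.2 to 13.3. The difference of Psma1 in Cy3 was -0.56 ± 1.39 with that array and 0.98 without it. Psma6, another alpha subunit, read 11.34 in both channels on obese replicate 1, and Psmd14, the deubiquitinase of the lid, read 6.81 in both on obese replicate 3, each more than 2 log2 units below the median of the other arrays. The difference of Psmd14 was -0.51 ± 0.62 in Cy3, and without obese replicate 3 it was 0.087. Psma7 gave -0.50 ± 0.28 in Cy3, with obese replicate 2 at 11.26 and the other obese arrays at 12.32 to 12.55. Without loess Psma7 passed in Cy3, at -0.82 (adjusted p = 0.0452, limma). With the main processing the 7 alpha subunits had 0 calls in either channel by limma (0 in Cy3 and 1 in Cy5 at an unadjusted p under 0.05).

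For 7 members more than 1 probe passed, and their probes disagreed in direction by over 0.5 log2 between genotypes for Psmd2 and Psmc4. Psmd2, a scaffold of the cap, gave -0.13 at its brightest probe and 0.66 at the other in Cy3, and -0.04 and 0.55 in Cy5. Psmc4 gave -0.09 and 0.46 in Cy3, and -0.31 and 0.21 in Cy5. Their direction between genotypes is therefore not settled here. For the TU response the probes of Psmd2 gave -0.33 and -0.31 in lean and -0.24 and -0.42 in obese rats, on the same side of 0.

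Genes that work with the proteasome were counted from lists of the pathway. Of all features, 7.45% were called higher and 7.38% lower in obese rats in Cy3, and 11.6% and 8.92% in Cy5. Unlike the members, the listed genes were not followed through the alternative settings or left-out arrays. Among genes for ubiquitin and its activation, the polyubiquitin gene Ubb and the activating enzyme gene Uba1 were higher in obese than lean rats under TU, by 0.61 and 0.55 (adjusted p = 0.00968 and 0.0143, limma), and neither passed under vehicle. Of 16 proteasome-bound and shuttle factors 11 were measured; Txnl1, a thioredoxin-like protein of the cap, was higher in obese rats in both channels (0.55 and 0.54), and the shuttle factor Ubqln1 (0.91) and the segregase Vcp (0.40) in Cy5. Of 4 genes for maturation and inhibition 3 were measured, and Pomp, the maturation chaperone (0.42), and Psmf1, an inhibitor (0.55), were higher in obese rats in Cy5. Among MHC class I genes, the transporter genes Tap1 (0.54, adjusted p = 0.0477) and Tap2 (0.70, adjusted p = 0.0144) were higher in obese rats under vehicle by limma, Tap2 also under TU (0.75), and Pdia3 was lower under TU (-0.58). Of 6 regulators of proteasome genes 4 were measured and 0 passed in any comparison by limma. At an unadjusted p under 0.05, Nfe2l2, which binds the antioxidant element, lay lower (-0.64) with TU in lean rats, and Stat3 higher in lean (0.25) and obese rats (0.24).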

How the data were processed

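Liver RNA of lean and obese rats was hybridised to 4 dual-colour Agilent arrays each, with 45018 spots per array. The deposited files hold median spot intensity and local background per channel from Agilent Feature Extraction, per the file headers, beside processed signals and a log10 ratio of red over green. A deposited value table gave, by comparison with the ratio of the processed signals (r 0.996 to 1.000), log2 ratios of TU over vehicle. Against the scanner's own log10 ratio, r ran from 0.703 on lean replicate 4 to 0.996 on obese replicate 2. The column medians were 0.0862, 0.0672, 0.0752 and 0.0669 for lean and 0.0799, 0.140, 0.0639 and 0.0462 for obese replicates. The authors' normalization of this table is not stated.

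Signals were background-corrected (normexp, offset 50) and loess-normalized within arrays with control spots at weight 0. Non-uniform spots and controls were left out and spots of a probe averaged. Probes marked above background by the scanner software, in Cy3 or Cy5, on 4 or more arrays were kept (26967 of 41012), named through RefSeq accessions, with the brightest probe per gene. Log2 ratios of all 8 arrays were fitted with limma 3.58.1 (R 4.3.3), as were single channels after Aquantile scaling, obese against lean, with Benjamini-Hochberg adjustment over all features at 0.05. The fits were tested on simulated data with independent noise per feature. Those data held no slide, dye or intensity effect, so they cannot speak to such effects here. p-values measure the spread between these arrays, which the labels call biological replicates.

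Same-numbered lean and obese arrays lay at 1 slide position, and their Cy5 deviations correlated at 0.613, 0.170, 0.438 and 0.246. Every pair was above 0.1, so the replicate block is given for Cy5, while Cy3 and the ratios did not meet this. The best differently numbered arrays reached -0.227, 0.0946, 0.411 and 0.204 in Cy5, so only the pair of replicate 1 stood well apart. Named with values are members past an adjusted p of 0.05, the 3 highest, 3 lowest and 3 smallest p of each comparison, the immunoproteasome genes with Psmb5, Psmb6 and Psmb7, and members whose probes disagree by over 0.5 log2; others are given by range and count. A few genes of these lists are not reported here. Members and lists were chosen with earlier results of these data known. Alternatives were other background corrections, normalizations, filters, probe rules and fits, and leaving out each array.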

Additional observations from a re-analysis of the deposited data

Results flagged for a closer look

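In groups of 4 arrays, the gap between an extreme array and its nearest neighbour was compared with the range of the group, which chance passes in about 1 of 20 groups. Of 93 groups of named genes, 7 had an array apart. Obese replicate 2 had the low log2 ratios of Psmb7 (-0.90, others -0.17 to -0.15) and Psmd3 (-1.48, others -0.24 to -0.071). Obese replicate 1 had the low log2 intensity of Psma1 in Cy3 (6.76, others 12.5 to 13.3) and of Psmb8 in Cy5 (10.3, others 11.9 to 12.2). Lean replicate 1 was low for Psmb8 in Cy3 (10.5, others 11.2 to 11.3). Lean replicate 2 was low for Psmd4 in Cy5 (11.4, others 11.7 to 11.8), and lean replicate 4 for Psmb9 in Cy5 (11.2, others 11.4). The cause was not tested.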

How the results depend on the processing

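The count of members with a TU difference in lean rats was 0, and it was 2 without background correction (1.45% of all features called), 2 with the lean arrays fitted alone (1.16%) and 18 with median centring (23.8%), against 0.195% as reported; with median centring the median of members was -0.55. Over left-out arrays the count ran from 0 to 5. In obese rats and for the difference between genotypes the count was 0 under every alternative run. The obese median was 0.16 with median centring and 0.0068 with scaled log ratios, and -0.13 to -0.026 over left-out arrays; the median difference was 0.77 with median centring. Under vehicle the count was 3 without loess (8.27% of all features, median -0.37) and 5 with the replicate block (6.15%), against 14.8% as reported; with the block Psmb1, Psmb2, Psmb5 and Psmd3 lost their calls. Over left-out arrays the count under vehicle ran from 5 to 11. Under TU the median was 0.25 without loess, and the count 6 to 14 over left-out arrays. Numbered pairs did not all correlate in Cy3 or the ratios, so the block there shares only a slide position. Values that turned sign follow, and the cause was not tested. Without background correction, Psmb5 was -0.0025 in lean rats and Psmb6 -0.0013 in the difference. With processed signals, lean Psmb5 was -0.0017 and Psmb7 0.084, obese Psmb10 0.060, Cy3 Psma7 0.032, Psmb6 0.079 and Psmb7 0.76, and Cy5 Psmb5 -0.22, Psmb6 0.12 and Psmb7 0.32. The authors' deposited log ratios gave the same lean and obese values for Psmb5 (-0.0017), Psmb7 (0.084) and Psmb10 (0.060), and 0.021 for the Psmb9 difference. With median centring, lean Psmb4 was -0.31, Psmb5 -0.48, Psmb6 -0.50, Psmc5 -0.32, Psme1 -0.42 and Psmg4 -0.32, obese Psmb10 0.26, Psmb5 0.086 and Psme2 0.085, and the difference 0.57 for Psmb5, 0.43 for Psmb7, 0.59 for Psmb8, 0.79 for Psmb9, 0.24 for Psmc3, 0.18 for Psmd3 and 0.35 for Psme1. Without loess, Cy3 Psmb2 was -0.019, Psmb5 -0.066, Psmb9 -0.24 and Psme1 -0.13, and Cy5 Psmb10 0.19, Psmb6 0.17, Psme1 0.092 and Psme2 0.15. The replicate block gave -0.012 for the Psmb6 difference and -0.027 for Psmb9 in Cy5, and scaled log ratios -0.030 for Psmb6 in lean rats, -0.45 for the Psmb10 difference and -0.94 for that of Psme2. Over left-out arrays, ranges that crossed 0 were, in Cy3, -1.31 to 0.98 for Psma1, -0.35 to 0.15 for Psmb7, -0.27 to 0.40 for Psmb9 and -0.88 to 0.087 for Psmd14; in Cy5, -0.23 to 0.072 for Psmb10, -0.073 to 0.072 for Psmb5 and -0.21 to 0.25 for Psmb9; in lean rats, -0.023 to 0.060 for Psmb5, -0.021 to 0.078 for Psmb6 and -0.15 to 0.073 for Psmb7; in obese rats, -0.15 to 0.073 for Psmb10; in the difference, -0.0022 to 0.23 for Psmb10, -0.012 to 0.087 for Psmb6 and -0.15 to 0.059 for Psmb9. Probes near background, such as Psma1 on obese replicate 1, limit the precision.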
